A study of Mus musculus with 16 samples.

Results

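Neat1 is a long noncoding RNA that stays in the nucleus and forms the scaffold of paraspeckles, ribonucleoprotein bodies that hold RNA-binding proteins and some RNAs. Its clusters were read out in single-end eCLIP of PGC-1α, a transcriptional coactivator of the fasting programme of the liver that also has RNA-binding motifs. In eCLIP, ultraviolet light links protein to RNA, the protein is immunoprecipitated (IP), and stretches of RNA with many reads (clusters) are compared with an input library. Every cluster whose midpoint lay within Neat1 on its own strand was taken, which gave 2118 of the 1331383 clusters of 8 IP libraries and 812 of the 8478 rows of 4 deposited lists of reproducible peaks. The gene was selected on its number of peaks in these same data, so its high counts and folds are a description and carry no test.

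The cells were primary hepatocytes freshly isolated from the liver of C57BL/6J mice. After overnight starvation, the glucagon groups were stimulated for 3 h with 200 nM glucagon, a hormone that the pancreas releases in fasting. The control groups are labelled untreated, and all groups were crosslinked at 254 nm and 400 mJ/cm2. Each treatment was read in an upper and a lower band, a split the labels do not explain further, with 2 IP libraries in each of the 4 groups. The 8 input libraries entered through the deposited folds, and whether replicates came from separate animals or cultures is not given, so the replicate spread behind each p-value may be technical.

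Libraries held 97629 and 207718 clusters in the glucagon upper band, 26279 and 188011 in the glucagon lower band, 240002 and 260814 in control upper-band libraries, and 132622 and 178308 in control lower-band libraries. The first glucagon lower-band library was thus the smallest, and read depth is unknown because the files give no read counts. Clusters lay in all 10 hepatocyte marker genes, 252 to 446 per library in sum, including albumin (Alb) and the transcription factor Hnf4a. Markers of Kupffer cells summed to 4 to 9 clusters, of endothelial cells to 0 to 1, of stellate cells to 0 to 4 and of cholangiocytes to 0 to 12. Of the Kupffer cell markers, Cd68 and Cd5l had clusters and Clec4f, Adgre1 and Marco were at 0. Of the cholangiocyte markers, Sox9 and Spp1 had clusters and Krt19, Krt7 and Epcam were at 0.

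Mouse Neat1 (ENSMUSG00000092274.3) lies on the minus strand at chr19:5824708-5845478 of mm10 in GENCODE M21. The long isoform is the whole 20771 nt without splicing, and it is the isoform on which paraspeckles depend. The short isoform starts at the same promoter and ends at base 3172 from the 5′ end, where its transcript is cleaved and polyadenylated. Bases 1 to 3172 are called the short-isoform part here and bases 3173 to 20771 the long-only part. Both isoforms carry the 5′ part except bases 555 to 720, an annotated intron of the short isoform. Outside that intron a cluster there cannot be given to either. All positions below count from 1 at the 5′ end of the gene, and all of the gene is noncoding exon in the long isoform.

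A cluster was called enriched when its log2 fold over input was at least 3 and its −log10 p at least 3. The stretches that were enriched in all 8 libraries are the bases that every IP shared, and those with the highest, the longest and the outermost of them are printed below in mm10, minus strand, 5′ to 3′. The first 3 sequences hold the blocks of 30 nt or more with the highest mean fold, at chr19:5843725-5843791, chr19:5843624-5843692 and chr19:5843286-5843380. Capitals mark bases enriched in all 8 libraries, and lower case marks flanks.
Neat1 bases 1688-1754: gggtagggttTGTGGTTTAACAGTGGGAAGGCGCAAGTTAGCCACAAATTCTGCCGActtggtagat
Neat1 bases 1787-1855: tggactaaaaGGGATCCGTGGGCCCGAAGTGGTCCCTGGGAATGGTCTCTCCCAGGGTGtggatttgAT
Neat1 bases 2099-2193: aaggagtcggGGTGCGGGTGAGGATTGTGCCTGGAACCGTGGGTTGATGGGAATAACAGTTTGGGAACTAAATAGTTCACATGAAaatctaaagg
The next 4 are the shared block nearest the 5′ end (chr19:5844446-5844554), the longest shared block (chr19:5842936-5843148), the longest shared block of the long-only part (chr19:5840814-5840966) and the shared block nearest the 3′ end (chr19:5833680-5833728), with the same use of capitals.
Neat1 bases 925-1033: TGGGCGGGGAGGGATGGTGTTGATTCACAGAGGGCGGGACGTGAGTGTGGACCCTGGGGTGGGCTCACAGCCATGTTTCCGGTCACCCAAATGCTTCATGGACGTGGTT
Neat1 bases 2331-2543: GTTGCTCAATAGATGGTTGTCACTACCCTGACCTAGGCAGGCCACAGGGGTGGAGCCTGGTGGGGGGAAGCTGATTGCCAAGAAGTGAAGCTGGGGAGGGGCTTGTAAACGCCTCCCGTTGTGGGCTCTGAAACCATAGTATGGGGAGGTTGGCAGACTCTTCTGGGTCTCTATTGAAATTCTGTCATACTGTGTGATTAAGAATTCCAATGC
Neat1 bases 4513-4665: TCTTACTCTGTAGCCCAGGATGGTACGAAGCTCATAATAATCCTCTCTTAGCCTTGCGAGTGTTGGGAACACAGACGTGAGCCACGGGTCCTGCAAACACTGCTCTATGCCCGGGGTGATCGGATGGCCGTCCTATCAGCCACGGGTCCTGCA
Neat1 bases 11751-11799: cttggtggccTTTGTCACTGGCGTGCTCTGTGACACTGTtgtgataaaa
For contrast, the first 60 nt of the longest stretch of the short-isoform part without a cluster in any library (chr19:5845214-5845273) are given in lower case.
Neat1 bases 206-265: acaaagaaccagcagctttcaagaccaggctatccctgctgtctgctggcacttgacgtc

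In the glucagon upper-band libraries Neat1 held 233 and 354 clusters, of which 161 (69.1%) and 297 (83.9%) were enriched. The glucagon lower-band libraries held 126 and 396, of which 77 (61.1%) and 294 (74.2%) were enriched. Over all clusters of a library, by comparison, 3.37% and 3.66% were enriched in the glucagon upper band, 3.73% and 1.5% in the glucagon lower band, 2.05% and 2.5% in control upper-band libraries, and 3.1% and 3.19% in control lower-band libraries. The control upper-band libraries held 270 and 293 Neat1 clusters, of which 199 (73.7%) and 259 (88.4%) were enriched. The control lower-band libraries held 206 and 240, of which 175 (85.0%) and 206 (85.8%) were enriched. Neat1 had more enriched clusters than any other gene in each of the 8 libraries. The gene with the second most was Agap1, Tns1 or Zmiz1, with 33 to 126.

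The median log2 fold of the Neat1 clusters was 3.29 and 3.54 in the glucagon upper band, 3.27 and 3.29 in the glucagon lower band, 3.38 and 3.61 in control upper-band libraries, and 3.52 and 3.53 in control lower-band libraries. These medians lie just above the threshold, and the highest Neat1 cluster of a library had a log2 fold of 4.23 to 4.94. All other clusters of a library had medians of 0.910 to 1.59. The lowest enriched Neat1 cluster of each library had a fold of 3.00 to 3.03 and the highest Neat1 cluster below the threshold 2.98 to 3.00, so the threshold runs through a continuous range of values. No Neat1 cluster with a fold of at least 3 was lost on its p alone. Of the clusters at the cap of −log10 p, 400, between 84.2% and 98.0% per library lay in Neat1. No cluster lay on the strand opposite to Neat1 within the gene.

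Many Neat1 clusters were short and abutted each other, with a median length of 14 to 37 nt per library, so the share of gene length covered is used below beside their number. Enriched clusters covered 20.7% and 24.5% of Neat1 in the glucagon upper band, 15.7% and 29.9% in the glucagon lower band, 19.5% and 23.0% in control upper-band libraries, and 24.6% and 23.5% in control lower-band libraries. The 2 glucagon lower-band libraries were the lowest and the highest of all 8.

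**Figure D1:**
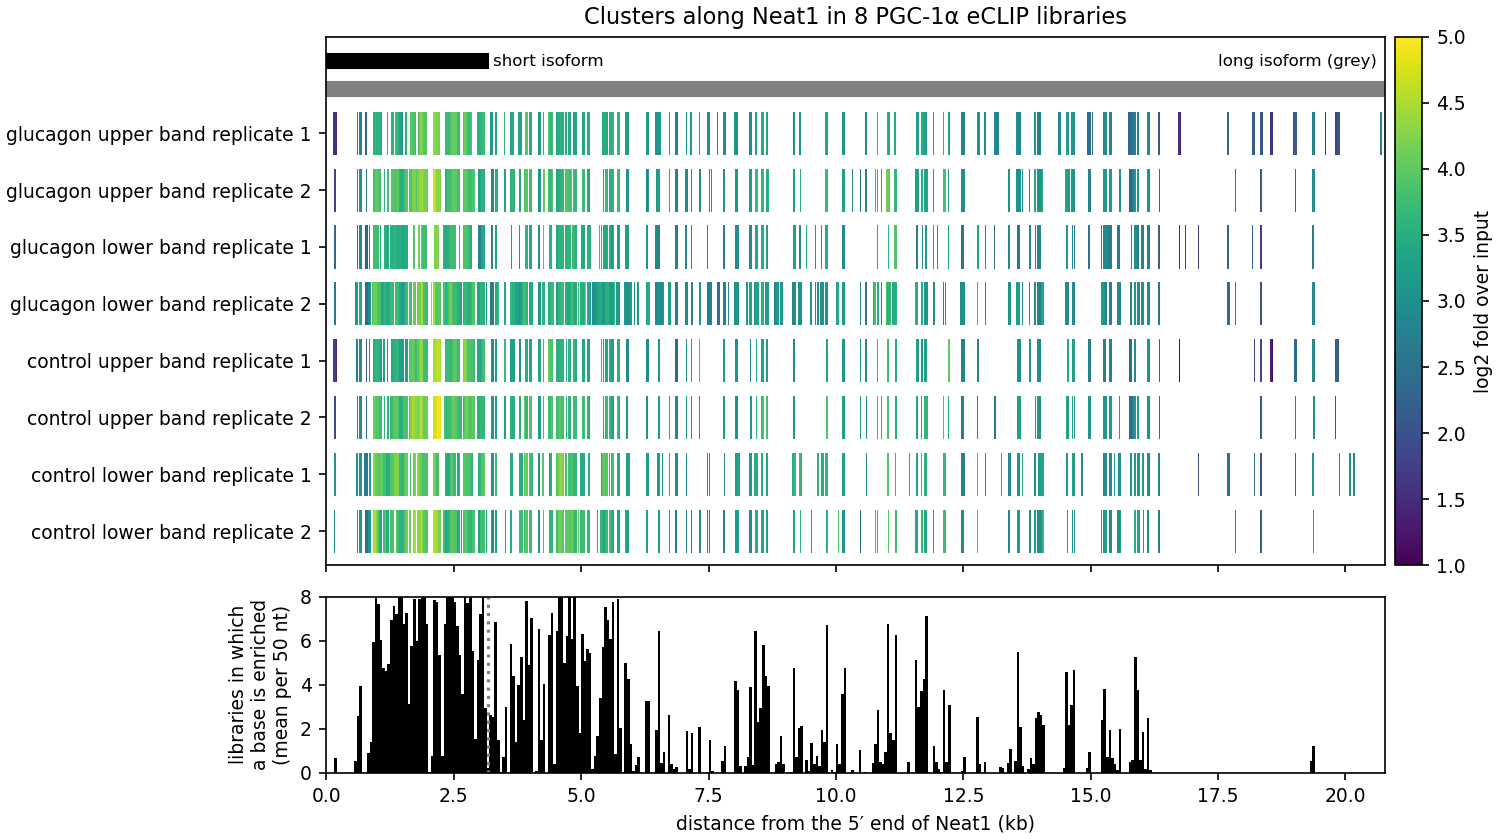
Each row is an IP library and each block a cluster, placed by its distance from the 5′ end of Neat1 in kb and coloured by its log2 fold over input; black and grey bars mark the short and the long isoform. The lower panel gives the number of libraries (of 8) in which a base was enriched, averaged over 50 nt, with the end of the short isoform dotted; dense, high-fold blocks lie between 0.9 and 3.1 kb, and fewer lie beyond 6 kb.

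Enriched clusters were concentrated in the 5′ part, which both isoforms share but for the intron of the short isoform. In the short-isoform part they covered 48.4% and 56.6% of the length in the glucagon upper band, 43.7% and 67.2% in the glucagon lower band, 55.7% and 59.4% in control upper-band libraries, and 59.6% and 63.6% in control lower-band libraries. In the long-only part they covered 15.7% and 18.7% in the glucagon upper band, 10.7% and 23.1% in the glucagon lower band, 13.0% and 16.5% in control upper-band libraries, and 18.3% and 16.3% in control lower-band libraries. The highest share in the long-only part was below the lowest in the short-isoform part. The mean was 56.8% ± 7.68 in the short-isoform part and 16.5% ± 3.77 in the long-only part (SD, n = 8 libraries). The short-isoform part was higher in 8 of 8 libraries, by 40.2 ± 5.25 percentage points (exact two-sided sign-flip test, p = 0.00781, the smallest that 8 libraries can give). The parts follow the isoform annotation but were chosen with earlier results of these data known. This test and that of the fold below are not independent of that choice. How much RNA of either isoform the cells held was not measured here, and its part in the difference was not tested. In such bulk cultures fewer cells with an RNA and less of it per cell cannot be told apart.

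The fold itself was also higher in the 5′ part. Clusters of the short-isoform part had a mean log2 fold of 3.47 and 3.81 in the glucagon upper band, 3.42 and 3.63 in the glucagon lower band, 3.63 and 3.84 in control upper-band libraries, and 3.82 and 3.82 in control lower-band libraries. Over libraries that came to 3.68 ± 0.17 in the short-isoform part and 3.23 ± 0.14 in the long-only part, a difference of 0.45 ± 0.05 on the log2 scale (SD, n = 8). It was positive in 8 of 8 libraries (exact two-sided sign-flip test, p = 0.00781). Upper and lower band libraries counted as separate units in both tests. With the bands of a treatment and replicate number averaged, 4 units cannot give an exact sign-flip p below 0.125, which both differences reached.

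**Figure D2:**
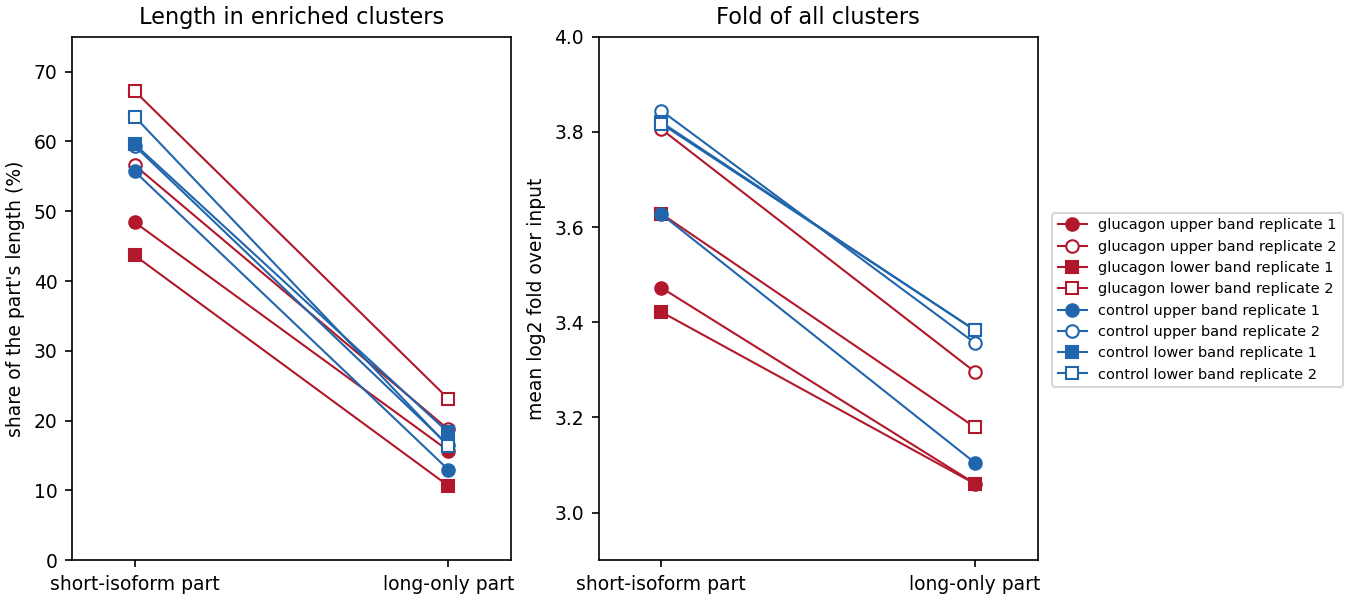
Left, percentage of the length of each part of Neat1 that enriched clusters cover; right, mean log2 fold over input of all clusters of each part (the axis does not start at 0). Each line is an IP library, and all 8 fall between the short-isoform part and the long-only part in both panels.

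The decline along the gene did not fall at the end of the short isoform alone. The stretch of equal length that follows it, bases 3173 to 6344, was examined after the values were seen and is given without a test. Enriched clusters covered 44.5% and 46.3% of that stretch in the glucagon upper band, 38.8% and 66.9% in the glucagon lower band, 40.1% and 45.3% in control upper-band libraries, and 46.5% and 49.0% in control lower-band libraries. In the remaining bases, 6345 to 20771, they covered 9.37% and 12.7% in the glucagon upper band, 4.47% and 13.5% in the glucagon lower band, 7.03% and 10.2% in control upper-band libraries, and 12.1% and 9.13% in control lower-band libraries. Coverage was therefore closer between the short-isoform part and the stretch just beyond it than between that stretch and the rest. Within a library the fold of a Neat1 cluster correlated with its distance from the 5′ end at a Spearman rho of −0.65 to −0.52, as a description over clusters that share a library.

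By kb, enriched clusters covered a mean of 15.0% of the first kb, 83.2% of the second, 70.3% of the third, 44.8% of the fourth, 59.2% of the fifth and 52.4% of the sixth (n = 8 libraries). The seventh kb had 13.1% and the eighth 5.85%. Coverage was higher again in the ninth kb, at 26.4%, and in the twelfth, at 26.1%. Kb 18, 19 and 21 had no enriched base in any library, and the last enriched base of a library lay between bases 15909 and 19384. The 5′ end itself was also sparse, with the first enriched base between 153 and 925.

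Around the end of the short isoform, enriched clusters covered more of the 500 nt before it than of the 500 nt after it in every library. Before and after the end the shares were 65.6% and 33%, and 72.8% and 32.4%, in the glucagon upper band, and 50% and 13.6%, and 83.2% and 40.4%, in the glucagon lower band. The control upper band had 77.8% and 36.4%, and 79.8% and 38.6%, and the control lower band 64.6% and 33.8%, and 80.6% and 26%. No enriched cluster ran across the end. The 100 nt around it are printed at chr19:5842257-5842356 (minus strand), with the hexamer AATAAA, the usual polyadenylation signal, in capitals.
Neat1 bases 3123-3222: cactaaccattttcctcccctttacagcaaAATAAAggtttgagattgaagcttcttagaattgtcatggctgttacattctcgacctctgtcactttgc
That hexamer starts at base 3153, 19 nt before the end, and was searched on the Neat1 strand only. It occurs 6 times in Neat1, and 1.30% of all 50-nt windows along the gene hold it.

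GENCODE M21 lists an intron of the short isoform at bases 555 to 720, a stretch of 166 nt that the unspliced long isoform keeps. Enriched clusters covered 0% and 36.1% of it in the glucagon upper band, 0% and 62.7% in the glucagon lower band, 0% and 9.64% in control upper-band libraries, and 55.4% and 49.4% in control lower-band libraries. The replicates of a group thus differed in 3 of the 4 groups, and 3 libraries had no enriched base there.

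The enriched bases recurred between libraries. Of the 20771 bases of Neat1, 2284 (11.0%) were enriched in all 8 libraries and 12754 (61.4%) in none. The shared bases were 1168 in the short-isoform part, which is 36.8% of it, and 1116 in the long-only part, which is 6.34% of it. They formed 44 blocks of 2 to 213 nt, with a median of 45.5 nt, between bases 925 and 11789. Of these blocks 17 lay in the short-isoform part, 19 in the stretch of equal length after it and 8 beyond, where they summed to 221 nt. No base beyond 11789 was enriched in all 8 libraries.

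The block with the highest mean fold was bases 2109 to 2183, within the printed bases 2099-2193. Its log2 fold was 4.28 and 4.52 in the glucagon upper band, 4.23 and 4.12 in the glucagon lower band, 4.51 and 4.77 in control upper-band libraries, and 4.01 and 4.52 in control lower-band libraries. Treatments overlapped in both bands, and the mean over 8 libraries was 4.37 ± 0.25 (SD). The top cluster of a library lay at or next to this block, between bases 2098 and 2225, in 6 of the 8 libraries. In the second glucagon lower-band library the top cluster was at bases 1860 to 1881 with a log2 fold of 4.52, and in the first control lower-band library at bases 909 to 922 with 4.46. The block at bases 1698 to 1744 averaged 4.13 ± 0.20 and that at 1797 to 1845 averaged 4.17 ± 0.11.

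The longest shared block, bases 2331 to 2543, had the smallest SD between libraries of all 44. Its log2 fold was 3.87 and 3.83 in the glucagon upper band, 3.65 and 3.81 in the glucagon lower band, 3.78 and 3.85 in control upper-band libraries, and 3.68 and 3.75 in control lower-band libraries, a mean of 3.78 ± 0.08 (SD, n = 8). In the long-only part the longest block, bases 4513 to 4665, had 3.49 and 3.55 in the glucagon upper band, 3.53 and 3.59 in the glucagon lower band, 3.58 and 3.81 in control upper-band libraries, and 4.16 and 3.97 in control lower-band libraries. Within each band both glucagon values lay below both control values there. Of the 44 blocks, that was so for 5 in the upper band and 29 in the lower band, and for 3 in both, while glucagon lay above without overlap for 4 in the upper band, 2 in the lower band and 0 in both. The blocks share their libraries, so they are not separate observations, and no share over other genes stands beside these counts. The lower fold was not particular to these blocks. Over all Neat1 clusters the lower-band medians were 3.27 and 3.29 with glucagon and 3.52 and 3.53 in the control, while the upper-band medians overlapped. The block at bases 4513 to 4665 was looked at because of its length. Its folds are each relative to the input of its own library, and the difference was not tested. The last block, bases 11761 to 11789, averaged 3.33 ± 0.17, the lowest of all 44.

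Bases enriched in all 8 libraries were 29.5% G and 26.7% T, against 23.2% G and 32.3% T among the 10974 bases with no cluster in any library. The short-isoform part as a whole was 30.7% G and the long-only part 24.1% G. Within the short-isoform part G was 31.8% of the shared bases and 31.5% of the bases with no cluster. Within the long-only part the values were 27.0% and 22.5%. Stretches of 300 nt or more without any cluster in any library were bases 206 to 567, 16364 to 16710, 17122 to 17675, 17857 to 18160, 18586 to 18977 and 20190 to 20686, so all but the first lay in the last 5 kb.

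The difference between glucagon and control in the extent of enriched clusters over Neat1 did not pass the test. The share of length in enriched clusters was 22.7% ± 5.99 in glucagon libraries and 22.7% ± 2.21 in control libraries (SD, n = 4 each), which differ by 0.0289 points (exact two-sided permutation within bands, p = 1, smallest possible 0.0556 over 36 assignments). The difference was 1.34 points in the upper band and −1.29 points in the lower band, and the groups overlapped in both. The near-equal means rest on the glucagon lower-band libraries, at 15.7% and 29.9% the extremes of all 8. Leaving out the first gave a glucagon minus control difference of 3.57 points and leaving out the second −3.51 points, and at a log2 fold threshold of 2 it was 3.75 points (exact permutation p = 0.389). Upper-band libraries had 21.9% ± 2.26 and lower-band libraries 23.4% ± 5.85 (n = 4 each), a difference of −1.49 points (exact permutation within treatments, p = 0.611). Within the control the 2 upper-band libraries were both below the 2 lower-band libraries, by 2.80 points in the mean, whereas the glucagon libraries overlapped.

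Relative to the rest of each library Neat1 weighed more in the glucagon lower band. Per 1000 enriched clusters, 49.0 and 39.1 lay in Neat1 in the glucagon upper band, 78.7 and 104 in the glucagon lower band, 40.4 and 39.7 in control upper-band libraries, and 42.6 and 36.2 in control lower-band libraries. Both glucagon lower-band libraries were above all others, and they were the libraries with the fewest enriched clusters in all, 979 and 2816 against 3288 to 7603. By length, Neat1 held 6.09% of the enriched length in the first of them and 3.22% in the second. The other libraries had 0.985% to 2.01%. The glucagon lower-band libraries were thus also highest by length, but in the opposite order. The difference between glucagon and control was 28.1 per 1000 (exact permutation within bands, p = 0.167) and that between upper and lower band −23.4 per 1000 (exact permutation within treatments, p = 0.222). The part that the total number of enriched clusters plays in this was not tested.

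The distribution along the gene was compared between treatments by the same kind of test, with the same limit. Of the enriched length of Neat1, 36.9% ± 3.72 lay in the short-isoform part in glucagon libraries and 40.3% ± 2.81 in control libraries, a glucagon minus control value of −3.36 points (exact permutation within bands, p = 0.278). It was −6.28 points at a log2 fold threshold of 2 and −6.27 points by number of enriched clusters (exact permutation p = 0.0556 for both, the smallest that 36 assignments allow), and 10.1 points at a threshold of 4 (exact permutation p = 0.111). As each library was left out it ranged from −5.38 points without the first glucagon lower-band library to −1.33 points without the second. In the upper band the glucagon libraries had 35.7% and 35.2% against 43.6% and 39.4% in the control, without overlap. In the lower band they had 42.5% and 34.4% against 37.0% and 41.2%, with overlap. Upper-band libraries had 38.5% ± 3.88 and lower-band libraries 38.8% ± 3.76 (exact permutation within treatments, p = 0.889).

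In coverage by enriched clusters, single positions showed little that belonged to a treatment in both bands. The folds of the shared blocks, given above, are a separate measure, with 29 of 44 blocks lower with glucagon in the lower band. The medians over all Neat1 clusters were lower there too. In the coverage of 21 bins of 1 kb, both glucagon libraries lay above both control libraries in 5 bins and below in 1 in the upper band. In the lower band they lay above in 0 and below in 4. No bin had the same direction in both bands. Only 12 bases, in 4 blocks of at most 6 nt, were enriched in all 4 glucagon libraries and in no control library, and 0 bases the other way round. Bases enriched in all 4 upper-band and no lower-band library numbered 27, and 40 the other way round. All of these sets are small beside the 2284 bases shared by all 8.

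**Figure D3:**
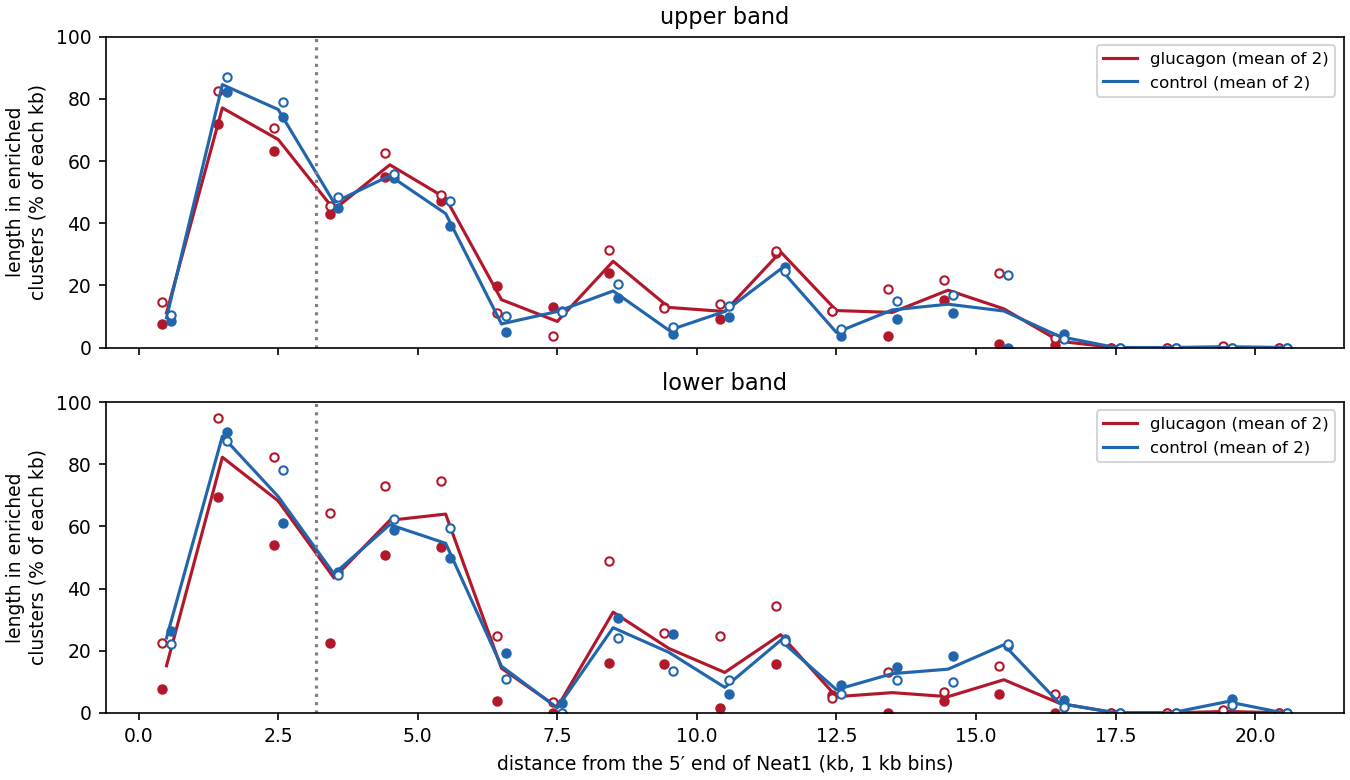
Percentage of each 1 kb bin of Neat1 that enriched clusters cover, by distance from the 5′ end; lines are the mean of the 2 libraries of a group, filled points replicate 1 and open points replicate 2, and the dotted line is the end of the short isoform. Both treatments peak in kb 2 and 3 and are near 0 beyond 17 kb in both bands.

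The deposited lists of reproducible peaks, 1 per group, were also rich in Neat1, whose rows entered the choice of the gene. It had 233 of 2167 rows (10.8%) in the glucagon upper band, 175 of 413 (42.4%) in the glucagon lower band, 222 of 3692 (6.01%) in the control upper band and 182 of 2206 (8.25%) in the control lower band. Listed peaks covered 50% of the short-isoform part and 15.8% of the long-only part in the glucagon upper band, and 53.3% and 13.5% in the glucagon lower band. They covered 56.5% and 13.7% in the control upper band, and 58.7% and 15.4% in the control lower band. The rows of a list carry coordinates of either library of the group, and 87.4% to 95.0% of the Neat1 rows lay on an enriched cluster in both libraries. Over the 4 lists 2559 bases (12.3% of Neat1) were listed in every group.

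Neat1 rows without an enriched cluster in the other treatment of the same band were counted beside the same share over all rows of the list. In the glucagon upper band list they were 15 of 233 (6.44%), against 29% of all rows, and in the glucagon lower band list 7 of 175 (4%), against 14.3%. In the control upper band list they were 4 of 222 (1.80%), against 37%, and in the control lower band list 13 of 182 (7.14%), against 59.6%. The share was lower for Neat1 in each list, which is given as a description because the gene was selected on its rows. Among them, 11 (upper band) and 6 (lower band) of the glucagon rows had no control cluster at all, and 0 of the control rows lacked a glucagon cluster. Over all rows, 81 of 2167 and 19 of 413 in the glucagon lists had no control cluster. In the control lists, 434 of 3692 and 403 of 2206 had no glucagon cluster. The Neat1 share without any cluster was thus above that of all rows in the glucagon upper band list and below it in the other lists. Neat1 rows without an enriched cluster in the other treatment had lower median log2 folds than all Neat1 rows, whose medians were 3.51 to 3.67. The former medians were 3.17 and 3.36 in the glucagon lists and 3.06 and 3.14 in the control lists. Their highest folds were 3.43 and 3.98 in the glucagon lists and 3.12 and 3.72 in the control lists. Single rows were not tested.

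Malat1, a neighbouring nuclear noncoding RNA that marks nuclear speckles, also had many clusters but no enriched one. It lies on the same strand at chr19:5795690-5802672, with 22035 nt between it and Neat1. Clusters of any fold covered 25.0% to 40.0% of the length of Neat1 per library and 32.7% to 39.9% of that of Malat1, which had 43 to 114 clusters. The median log2 fold of a library was 2.94 to 3.79 higher for Neat1 clusters than for Malat1 clusters, whose own medians were −0.32 to 0.34. Malat1's highest cluster in any library had a log2 fold of 1.68, and 0 of its 722 clusters were enriched. The lowest Neat1 cluster was above the highest Malat1 cluster in every library except the first control upper-band library, where it was 0.07 lower. No cluster lay in the gap between the genes, and 0 to 1 in the 5 kb upstream of Neat1. Because Neat1 was chosen for its values, this contrast carries no test.

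**Figure D4:**
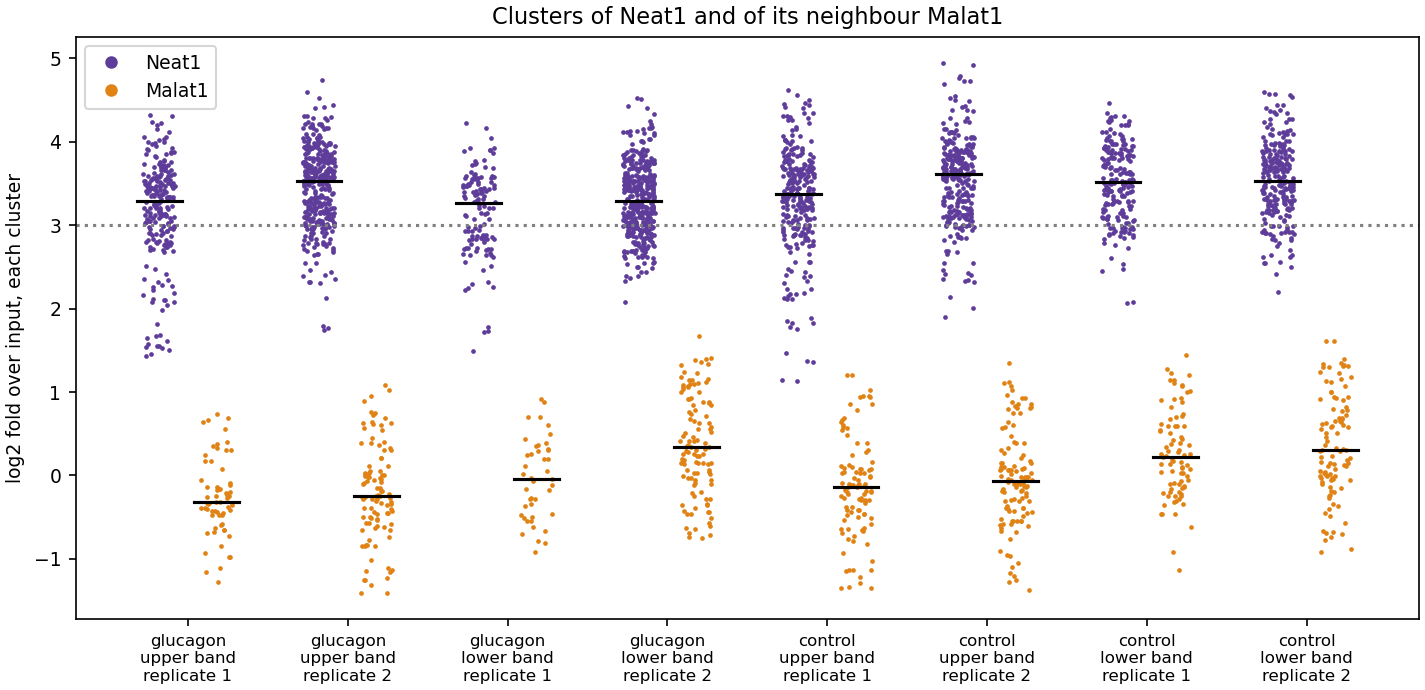
Log2 fold over input of every cluster of Neat1 and Malat1 in each IP library; black bars are medians and the dotted line is the threshold of 3. Neat1 medians lie between 3.27 and 3.61, and Malat1 medians between −0.32 and 0.34.

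Transcripts of the proteins that build paraspeckles were read from a list of 30 genes. All 30 had a cluster, and 10 (33.3%) had a row in any reproducible list, against 9.36% of the 12955 genes with a cluster. The glucagon upper band list held 6 of them beside 5.34% of all genes, and the glucagon lower band list 5 beside 0.849%. The control upper band list held 9 beside 7.27%, and the control lower band list 9 beside 4.86%. The genes were not matched on level or length, so the shares are given as a description. They included Rbm14, Taf15, Dazap1, Hnrnpf, Hnrnph3, Hnrnpk, Cpsf7, Rbm12 and Matr3, and Rbm12 shares its locus and strand with Cpne1, so its clusters are uncertain.

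Hnrnpf, which encodes an RNA-binding protein of the hnRNP F/H family, had the most listed rows of them. It had 9 and 16 enriched clusters in the glucagon upper band, 6 and 9 in the glucagon lower band, 19 and 19 in control upper-band libraries, and 14 and 13 in control lower-band libraries. Those counts were lower with glucagon within each band, but per 1000 enriched clusters of the library they were lower only in the upper band. On that scale Hnrnpf had 2.74 and 2.10 in the glucagon upper band against 3.85 and 2.91 in control upper-band libraries, and 6.13 and 3.20 in the glucagon lower band against 3.41 and 2.28 in control lower-band libraries. The glucagon values were thus lower in the upper band and higher in the mean, with overlap, in the lower band. Hnrnpk, which encodes an hnRNP protein known from human cells to act in the choice between the Neat1 isoforms, had 5 and 12 in the glucagon upper band, 2 and 8 in the glucagon lower band, 8 and 8 in control upper-band libraries, and 6 and 8 in control lower-band libraries. By these counts treatments overlapped in both bands for Hnrnpk. Per 1000 enriched clusters of the library they overlapped only in the upper band. In the lower band both glucagon values, 2.04 and 2.84, lay above both control values, the higher of which was 1.46. The glucagon lower-band libraries had the fewest enriched clusters in all, and this difference was not tested. Nono and Sfpq, the core paraspeckle proteins that bind Neat1, had clusters but 0 enriched ones in all 8 libraries; they were named after their values were seen.

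Among 27 other genes with at least 5 enriched clusters in every library, Lncpint, Mtss1, Wbp1l, Csrnp1 and Gpi1 varied most like Neat1 across the 8 libraries. The measure was the log2 of enriched clusters per 1000 of the library, and Pearson's r was 0.96, 0.95, 0.93, 0.92 and 0.84 in that order, over 8 libraries that all share their total with the gene. Lncpint, a long noncoding RNA gene, had 4.56 and 3.42 per 1000 in the glucagon upper band, 8.17 and 8.52 in the glucagon lower band, 3.45 and 3.37 in control upper-band libraries, and 4.62 and 3.69 in control lower-band libraries. Like Neat1, each of the 5 had its highest values in the 2 glucagon lower-band libraries, which had the fewest enriched clusters. In the first glucagon lower-band library, the required minimum of 5 enriched clusters is itself 5.11 per 1000. Genes low there could not enter, so the shared high values and the r are partly set by this filter. Csrnp1 lies within Cx3cr1 on the same strand, so its clusters cannot be told apart from those of that gene.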

How the data were processed

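Per the submitters' processing notes, cutadapt trimmed the reads and STAR aligned them to mm10; no version is named. For the peak caller and for the rule of the reproducible lists, the name is not given in the sources used here. The files have no header. The deposited values were read from their behaviour as a −log10 p-value, capped at 400, and a log2 fold over input, both made by the authors for each cluster. Sample groups follow the source names.

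Clusters were placed by midpoint and strand in GENCODE M21, and coordinates are 1-based. A cluster inside several genes went to Neat1 where it lay in it, otherwise to an exon, then to a protein-coding gene, then to the shortest gene. Small genes annotated within Neat1 on its strand were therefore counted as Neat1. Sequences are from the GENCODE M21 transcripts. A mean fold of a block is the mean over its bases of the fold of the cluster on each base.

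Treatments were permuted within bands and bands within treatments (36 assignments), and parts of the gene were compared by sign flips over 8 libraries (all sign patterns), all exact and two-sided. These steps were tested on simulated data. Named genes were Neat1, Malat1, the paraspeckle genes with a listed row and the 5 genes most correlated with Neat1; 1 gene that this rule takes is not reported here. The gene, its parts and the gene lists were chosen with earlier results of these data known. Alternatives covered the fold and p thresholds, placement by any overlap, counts in place of length, each library left out and a replicate block. Scripts ran in Python 3.11.15 with pandas 2.3.3, numpy 2.4.6 and matplotlib 3.10.9, and overlaps were tested against bedtools 2.31.1.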

Additional observations from a re-analysis of the deposited data

How the results depend on the processing

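The higher coverage of the short-isoform part of Neat1 kept its direction and its side of 0.05 in 12 of 13 alternatives. Its differences were 14.7 to 41.3 points. The higher fold did so in 11 of 12, with 0.44 to 0.50 on the log2 scale. Most of these could not come out otherwise. All 8 libraries were positive, so each exact sign-flip test with a library left out had to give p = 0.0156. A −log10 p threshold of 5 and placement by any overlap left the coverage difference unchanged at 40.2 points. With bands averaged into a replicate block of 4 units the differences were 40.2 points and 0.45 and the exact p was 0.125, the smallest that 4 units allow. Fewer units are the alternative's own construction.

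No difference between treatments or bands passed under any alternative. The exact test over 36 assignments cannot fall below p = 0.0556, so this says nothing about stability. For the length covered, the glucagon minus control difference ranged from −3.51 points (without the second glucagon lower-band library) to 3.57 points (without the first) as each library was left out, and was 3.75 points at a fold threshold of 2 and −1.44 points at a threshold of 4. The upper minus lower band difference ranged from −5.03 to 2.05 points as each library was left out and was 0.0686 points at a threshold of 4. For the part of enriched length in the short-isoform part, the glucagon minus control difference was 10.1 points at a threshold of 4. The upper minus lower band difference there was 0.514 points at a threshold of 2, 4.90 at a threshold of 4 and 2.68 by number of clusters, and ranged from −2.30 to 1.75 as each library was left out. The cause of these reversals was not tested. The mean number of enriched Neat1 clusters was 208.5 per library and 26.25 at a threshold of 4, a threshold close to the highest Neat1 folds.

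Deviations of same-numbered libraries from their group means correlated over 189 genes at 0.0060, 0.077, −0.049 and 0.16 in the 4 pairs of groups, and over the 21 kb bins of Neat1 at 0.69, 0.26, 0.22 and 0.11. The second library of a group also had more Neat1 clusters in all 4 groups, and it had more clusters in total in all 4 groups as well. No label says that a number marks a shared culture or day, and the gene-wide values are not all over 0.1. The replicate numbers were therefore not taken as pairs. The correlations over the Neat1 bins are all over 0.1, so the numbers may mark pairs, which was not tested. Exchanging labels only within a replicate number (replicate block) left the glucagon minus control difference in length covered at 0.0289 points (exact p = 1) and that in the short-isoform share of it at −3.36 points (exact p = 0.375). Depth is unknown, so a cluster missing from a small library may lie below its detection.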
